A study of Mus musculus with 8 samples.

Results

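The Hox gene clusters were examined as 289 of the 54235 windows of 250 bp that the DNA methylation tables of the series hold. A window belonged to a cluster when the transcription start site (TSS) nearest to its centre was that of a gene whose symbol starts with Hoxa, Hoxb, Hoxc or Hoxd. This rule uses position alone, though the clusters were picked for study with earlier results of these data known. The Hoxa cluster on chromosome 6 contributed 103 windows, the Hoxb cluster on chromosome 11 contributed 56, the Hoxc cluster on chromosome 15 contributed 69 and the Hoxd cluster on chromosome 2 contributed 61. All 289 windows lay on the chromosome of their cluster. They named 38 of the 41 Hox symbols of the annotation, 36 of them protein-coding genes. Hoxb2, Hoxc5 and Hoxd8 had no window. Because neighbouring windows overlap, the 289 windows form only 100 separate stretches of sequence.

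The cells were E14Tg2a mouse embryonic stem cells (ESCs), whose DNA was captured at selected regions, treated with bisulphite and sequenced. YAP KD cells at T4 and CTR KD cells at T4 were taken after 4 days of neuroectodermal differentiation as serum-free aggregates, and YAP KD cells at T0 and CTR KD cells at T0 were undifferentiated. YAP KD cells had been transfected with siRNAs against YAP, the co-activator at the end of the Hippo pathway, and CTR KD cells with a negative control duplex. Each of the 4 groups had 2 samples. By the study's methods these came from independent experiments. The knockdown was transient and YAP had returned to its usual level by T4 according to the study's description, so YAP KD at T4 names cells that had less YAP earlier. All groups come from the same cell line, and whether the cells made Hox RNA was not analysed here.

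Hox genes encode homeodomain transcription factors that give cells their position along the head-to-tail axis. They lie in clusters in the order in which they are used, with anterior paralogue groups at the 3′ end and posterior groups at the 5′ end, and paralogues with the same number in different clusters descend from a common ancestor. In ESCs the clusters are held silent by Polycomb complexes over long CpG-rich stretches that are largely free of DNA methylation, and neural differentiation with retinoic acid opens them from the 3′ end.

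The 5 windows below show the sequence at Hox sites where methylation fell by over 10 points, for each such gene the strongest window that overlaps no untranslated region (UTR) of any transcript. Both Hoxa5 windows overlap a UTR, so no sequence is given for that gene. Each is the plus strand of mm9, 5′ to 3′, with every CpG, the position at which methylation is read, in capitals. They hold between 11 and 13 CpGs in 250 bp, which is below the median of 15 CpGs over the Hox windows.
Hoxa7, chr6:52170626-52170875: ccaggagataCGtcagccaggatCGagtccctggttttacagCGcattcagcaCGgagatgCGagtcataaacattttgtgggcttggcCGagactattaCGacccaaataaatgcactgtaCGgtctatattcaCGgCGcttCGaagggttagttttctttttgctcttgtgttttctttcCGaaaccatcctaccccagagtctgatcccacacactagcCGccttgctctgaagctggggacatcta
Hoxd3, chr2:74576751-74577000: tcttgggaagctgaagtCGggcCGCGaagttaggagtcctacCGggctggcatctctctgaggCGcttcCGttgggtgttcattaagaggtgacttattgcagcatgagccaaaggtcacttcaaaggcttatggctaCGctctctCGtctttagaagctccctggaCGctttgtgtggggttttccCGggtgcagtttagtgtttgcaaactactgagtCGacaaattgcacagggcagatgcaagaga
Hoxb3os, chr11:96210001-96210250: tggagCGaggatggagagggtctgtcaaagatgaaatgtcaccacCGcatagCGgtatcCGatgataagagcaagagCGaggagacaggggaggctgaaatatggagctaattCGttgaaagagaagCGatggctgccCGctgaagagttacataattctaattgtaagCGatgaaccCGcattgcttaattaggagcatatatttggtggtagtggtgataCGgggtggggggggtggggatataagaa
Hoxb9, chr11:96131001-96131250: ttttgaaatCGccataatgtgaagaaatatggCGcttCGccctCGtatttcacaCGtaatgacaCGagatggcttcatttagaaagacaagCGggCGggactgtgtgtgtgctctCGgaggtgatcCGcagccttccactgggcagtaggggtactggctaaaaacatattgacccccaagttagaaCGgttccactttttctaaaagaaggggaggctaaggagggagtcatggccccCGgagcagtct
Hoxa6, chr6:52162001-52162250: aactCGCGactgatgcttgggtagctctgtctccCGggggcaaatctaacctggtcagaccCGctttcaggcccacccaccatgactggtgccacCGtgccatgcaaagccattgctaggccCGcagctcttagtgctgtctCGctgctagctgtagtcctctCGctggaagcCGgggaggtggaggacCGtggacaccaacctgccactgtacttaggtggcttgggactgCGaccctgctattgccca

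During differentiation some Hox windows lost over 10 points of methylation and none gained as much. By the rule used here, the share lost in CTR KD cells was close to that of all windows. In YAP KD cells, 13 of 241 Hox windows (5.39%) were differentially methylated regions (DMRs) that lost methylation at T4 relative to T0, against 3.35% of all windows tested. In CTR KD cells, 6 of 246 Hox windows (2.44%) were lost DMRs, against 2.21% of all windows. The count depends on which TSSs define a Hox window. With TSSs of protein-coding transcripts only it was 20 of 284 (7.04%) in YAP KD and 12 of 293 (4.10%) in CTR KD cells, and with all windows inside the cluster spans 18 of 281 (6.41%) and 11 of 294 (3.74%). No Hox window was a gained DMR in YAP KD or in CTR KD cells, where 0.505% and 0.958% of all windows were. Shares this low leave room for only a few gains among this many windows. A DMR here is a window with a q-value at or below 0.05 and a methylation difference over 10 percentage points. Every difference, p-value and q-value of a window is the authors' deposited value for a comparison of the 2 samples of each group. Levels, read depths and values of single samples are not in these tables, so individual samples cannot be shown, and the standard error (SE) given after ± was derived from the p-value and covers only the error in that p-value.

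The losses were wider than the DMRs. Without the 10-point minimum, 83 of 241 Hox windows (34.4%) lost methylation in YAP KD cells, against 12.7% of all windows, and 73 of 246 (29.7%) did so in CTR KD cells, against 9.57% of all windows. No Hox window in YAP KD cells and 1 in CTR KD cells gained methylation by the same measure, against 3.42% and 4.73% of all windows. The median change of a Hox window was -1.24 points in YAP KD cells and -1.02 points in CTR KD cells, where the medians over all windows were -0.168 and -0.0725 points. Taken over genes, each by its median window, the order of the cell types turned, with -0.750 points in YAP KD and -1.17 points in CTR KD cells. Negative changes made up 78.4% of Hox windows in YAP KD cells and 82.5% in CTR KD cells, against 58.9% and 54.0% of all windows. In windows of other homeobox genes, described below, they made up 84.1% in YAP KD and 76.9% in CTR KD cells. The median derived SE of a Hox window was 0.814 points in YAP KD and 0.784 points in CTR KD cells.

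**Figure D1:**
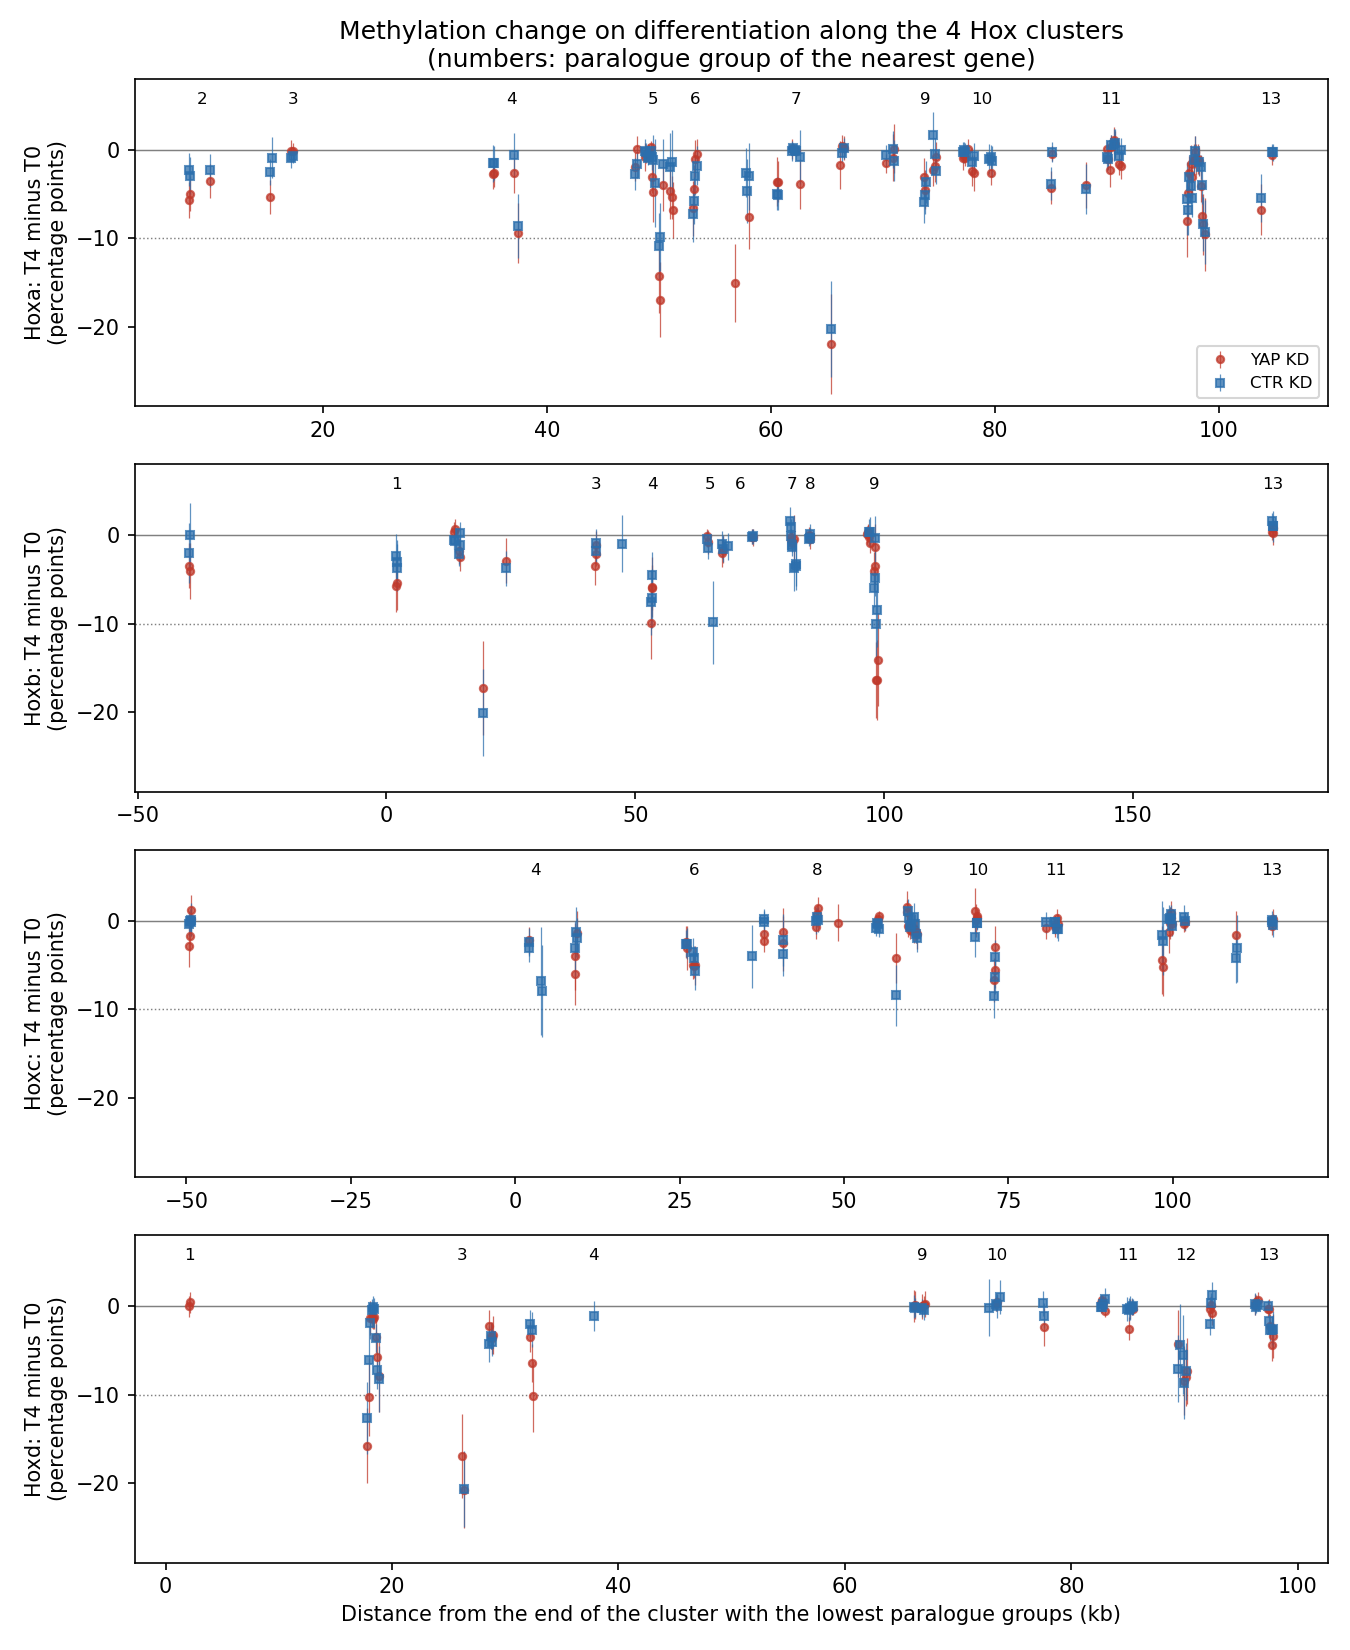
Methylation change (T4 minus T0, percentage points) of the Hox windows of the genes reported here against its distance in kb from the end of the cluster with the lowest paralogue groups, with negative distances outside the cluster, for YAP KD (circles) and CTR KD (squares). Bars are 95% intervals from the derived SEs, the dotted line marks -10 points and numbers give the paralogue group. Losses of 10 to 22 points stand beside many windows near 0 in Hoxa, Hoxb and Hoxd, and no Hoxc window crosses the line.

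The 13 lost DMRs merged into 8 sites, all of them lost in YAP KD cells and 6 of them also lost in CTR KD cells. Of the 13 windows, 9 were listed for CTR KD as well. All 9 had a q-value at or below 0.05 and a loss in CTR KD cells, and 6 of them passed 10 points there. The other 4 windows were not listed in the CTR KD differentiation table, so nothing can be said of them in CTR KD cells.

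In the Hoxa cluster the sites lay at Hoxa5, Hoxa6 and Hoxa7, central paralogues that pattern the cervical and thoracic region. The largest loss of the cluster was at a window 359 bp upstream of a Hoxa7 TSS, in an intron of a longer Hoxa7 transcript (chr6:52170626-52170875). It lost 21.9 ± 2.87 points in YAP KD cells (q = 1.33e-12) and 20.2 ± 2.75 points in CTR KD cells (q = 1.17e-11). The next windows listed on either side of it, 2750 bp and 750 bp away, changed by -3.87 points (q = 0.0372) and -1.72 points (q = 0.403) in YAP KD cells. The extent of the loss between these windows was not measured.

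At Hoxa5, a gene needed for lung and cervicothoracic development, 2 overlapping windows (chr6:52155251-52155625) were DMRs. The window centred 915 bp upstream of the TSS, which overlaps a UTR of a Hoxa6 transcript, changed by -16.9 ± 2.15 points in YAP KD cells (q = 2.37e-13) and by -9.84 ± 1.97 points in CTR KD cells (q = 1.18e-05). The window centred 790 bp upstream changed by -14.3 ± 2.09 points in YAP KD and by -10.8 ± 1.90 points in CTR KD cells. In the knockdown tables the more upstream window stood 0.350 points higher in YAP KD than in CTR KD cells at T4 (q = 0.910), and at T0 the difference was 7.44 points (q = 0.110). Neither passed the threshold.

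The Hoxa6 site was a single window 771 bp upstream of its TSS, in introns of the long Hoxa3 and 2700086A05Rik transcripts (chr6:52162001-52162250). It lost 15.1 ± 2.24 points in YAP KD cells (q = 7.45e-10) and was not listed for CTR KD. Hoxa11as, transcribed opposite to the posterior gene Hoxa11, came close to the minimum without passing it. Its outermost window, 5705 bp downstream of the TSS, changed by -9.54 points in YAP KD cells (q = 9.22e-05) and by -9.33 points in CTR KD cells (q = 8.91e-06).

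In the Hoxb cluster the sites lay at Hoxb9, a thoracic patterning gene, and at Hoxb3os, the opposite-strand transcript of the anterior gene Hoxb3. Upstream of Hoxb9, 3 overlapping intergenic windows (chr11:96130751-96131250) lost methylation in YAP KD cells, by 14.1 ± 2.68, 16.4 ± 2.33 and 16.4 ± 2.20 points. In CTR KD cells the first of these was not listed and the others lost 8.50 ± 2.10 and 10.1 ± 1.97 points. The adjoining window at chr11:96131251-96131500 changed by -1.30 ± 1.30 points in YAP KD and by -0.302 ± 1.25 points in CTR KD cells, which is within the error. The window after it (chr11:96131376-96131625) changed by -3.49 ± 1.05 points in YAP KD and -4.88 ± 1.04 points in CTR KD cells, and on the other side the nearest listed window was 7750 bp away.

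The Hoxb3os window lay 889 bp upstream of its nearest TSS, in an intron of a longer Hoxb3os transcript (chr11:96210001-96210250). With TSSs taken by transcript type, the nearest gene of this window is Hoxb2. It was the Hoxb window with the largest loss in YAP KD and in CTR KD cells, 17.3 ± 2.70 points in YAP KD cells (q = 5.40e-09) and 20.04 ± 2.52 points in CTR KD cells (q = 1.37e-13). It also had the largest Hoxb knockdown difference at T4, 4.68 points higher in YAP KD than in CTR KD cells (q = 0.444).

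The Hoxd cluster held its 5 DMRs at Hoxd3 alone, a group 3 gene that patterns the upper cervical vertebrae. The strongest lay in a Hoxd3 intron 800 bp upstream of an internal TSS (chr2:74576751-74577000), where the loss was 20.8 ± 2.19 points in YAP KD cells (q = 2.89e-19) and 20.7 ± 2.20 points in CTR KD cells (q = 6.55e-19). The window overlapping it (chr2:74576876-74577125) lost 16.9 ± 2.45 points in YAP KD cells and was not listed for CTR KD. A site over a Hoxd3 UTR (chr2:74585126-74585500) had a lead window that lost 15.8 ± 2.17 points in YAP KD and 12.7 ± 2.07 points in CTR KD cells. The remaining Hoxd3 DMR, 220 bp upstream of another TSS (chr2:74570626-74570875), lost 10.2 ± 2.04 points in YAP KD cells and was not listed for CTR KD. Hoxd3 lost methylation at q at or below 0.05 in 13 of 18 windows in YAP KD cells and in 10 of 15 in CTR KD cells.

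Hoxc was the cluster without a DMR. Its largest change in YAP KD and in CTR KD cells was 2726 bp upstream of Hoxc10, a gene of the lumbar region (chr15:102794376-102794625), at -6.71 ± 1.28 points in YAP KD cells (q = 3.33e-06) and -8.54 ± 1.27 points in CTR KD cells (q = 9.45e-10). Without a minimum difference, 11 of 60 Hoxc windows lost methylation in YAP KD cells and 15 of 62 in CTR KD cells. These were led by Hoxc6, where 5 of 9 windows in YAP KD cells and 6 of 10 in CTR KD cells passed. By the same measure 37 of 86 Hoxa windows, 15 of 44 Hoxb windows and 20 of 51 Hoxd windows lost methylation in YAP KD cells, against 26 of 86, 15 of 47 and 17 of 51 in CTR KD cells. The clusters were not tested against each other.

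**Figure D2:**
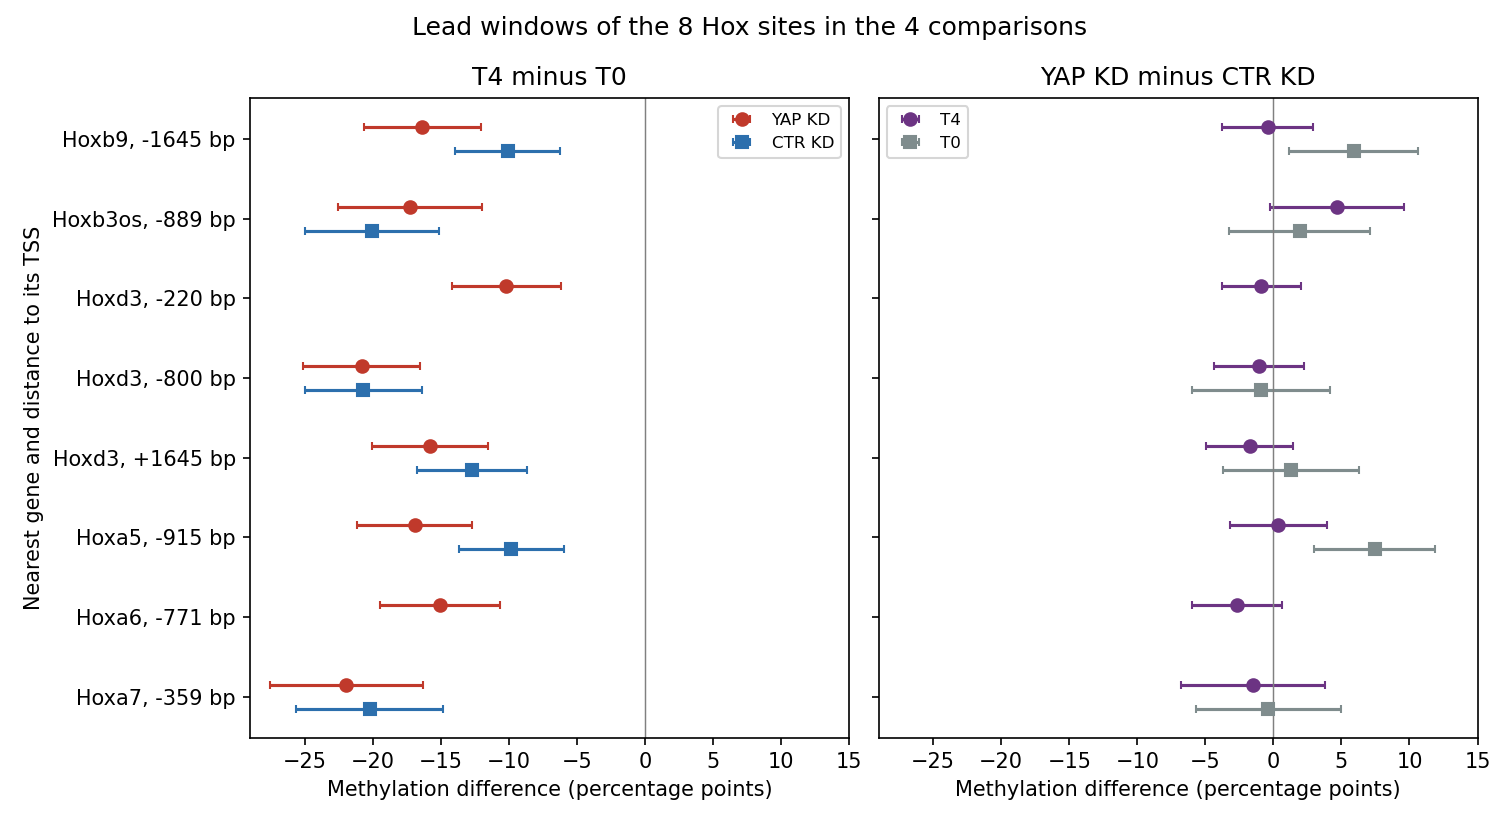
Methylation difference (percentage points) at the lead window of the 8 Hox sites, T4 minus T0 on the left for YAP KD (circles) and CTR KD (squares), and YAP KD minus CTR KD on the right at T4 (circles) and T0 (squares). Bars are 95% intervals from the derived SEs and a missing symbol is a window not listed. Changes on the left lie between -10.2 and -21.9 points for YAP KD and between -9.84 and -20.7 points for CTR KD, while the knockdown differences on the right lie between -2.69 and 7.44 points.

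By gene, 6 of 37 Hox genes had a lost DMR in YAP KD cells (Hoxa5, Hoxa6, Hoxa7, Hoxb3os, Hoxb9 and Hoxd3), and 5 of 37 did in CTR KD cells, the same genes without Hoxa6. Without a minimum difference, 24 of 37 genes in YAP KD cells and 25 of 37 in CTR KD cells had at least 1 window with a loss. Over all genes, 7.20% in YAP KD and 5.23% in CTR KD cells had a lost DMR, and 22.1% and 17.8% had a loss without a minimum. Hox genes had more windows, a median of 5 per gene in YAP KD and 6 in CTR KD cells against 3 over all genes in both, and a gene with more windows has more chances of a call. The gene with the lowest median was Hoxb4, at -5.91 points over 3 windows in YAP KD cells and -7.14 points over 3 windows in CTR KD cells. All 3 windows, 1622 to 1872 bp upstream of Hoxb4, passed q at or below 0.05 in both. Hoxb13, the posterior gene set apart from the rest of its cluster, had the highest median in both, 0.392 points in YAP KD and 1.06 points in CTR KD cells. Its window at chr11:96051501-96051750 was the Hox window with a q-value at or below 0.05 and a gain, 1.58 ± 0.505 points in CTR KD cells (q = 0.0139), with 0.392 ± 0.476 points in YAP KD cells (q = 0.560).

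Over the clusters together, the share of windows with a loss was highest in the anterior paralogue groups. In groups 1 to 3, 25 of 42 windows (59.5%) lost methylation in YAP KD cells without a minimum difference, with a median of -3.46 points, and 17 of 41 (41.5%) in CTR KD cells, with a median of -2.31 points. In groups 4 to 8 the counts were 27 of 73 in YAP KD cells and 24 of 80 in CTR KD cells. In groups 9 to 13 the shares were 24.6% in YAP KD cells and 25.6% in CTR KD cells, from 31 and 32 windows, with medians of -0.754 and -0.495 points. Hoxd3 supplied 13 of the 25 anterior windows in YAP KD cells and 10 of the 17 in CTR KD cells. Without Hoxd3 the anterior shares were 12 of 24 in YAP KD and 7 of 26 (26.9%) in CTR KD cells, so in CTR KD cells the anterior share then stood close to the posterior one. Within clusters the order also turned in CTR KD cells. In Hoxa the shares were 18.2% in groups 1 to 3, 27.3% in groups 4 to 8 and 35.7% in groups 9 to 13, and in Hoxb 33.3% in groups 1 to 3 and 40.0% in groups 9 to 13. The order was not tested. Hoxd1, in the most anterior group, had a median of 0.183 points in YAP KD cells, over 2 windows, while the posterior gene Hoxd12 had medians of -4.25 points in YAP KD and -4.94 points in CTR KD cells.

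**Figure D3:**
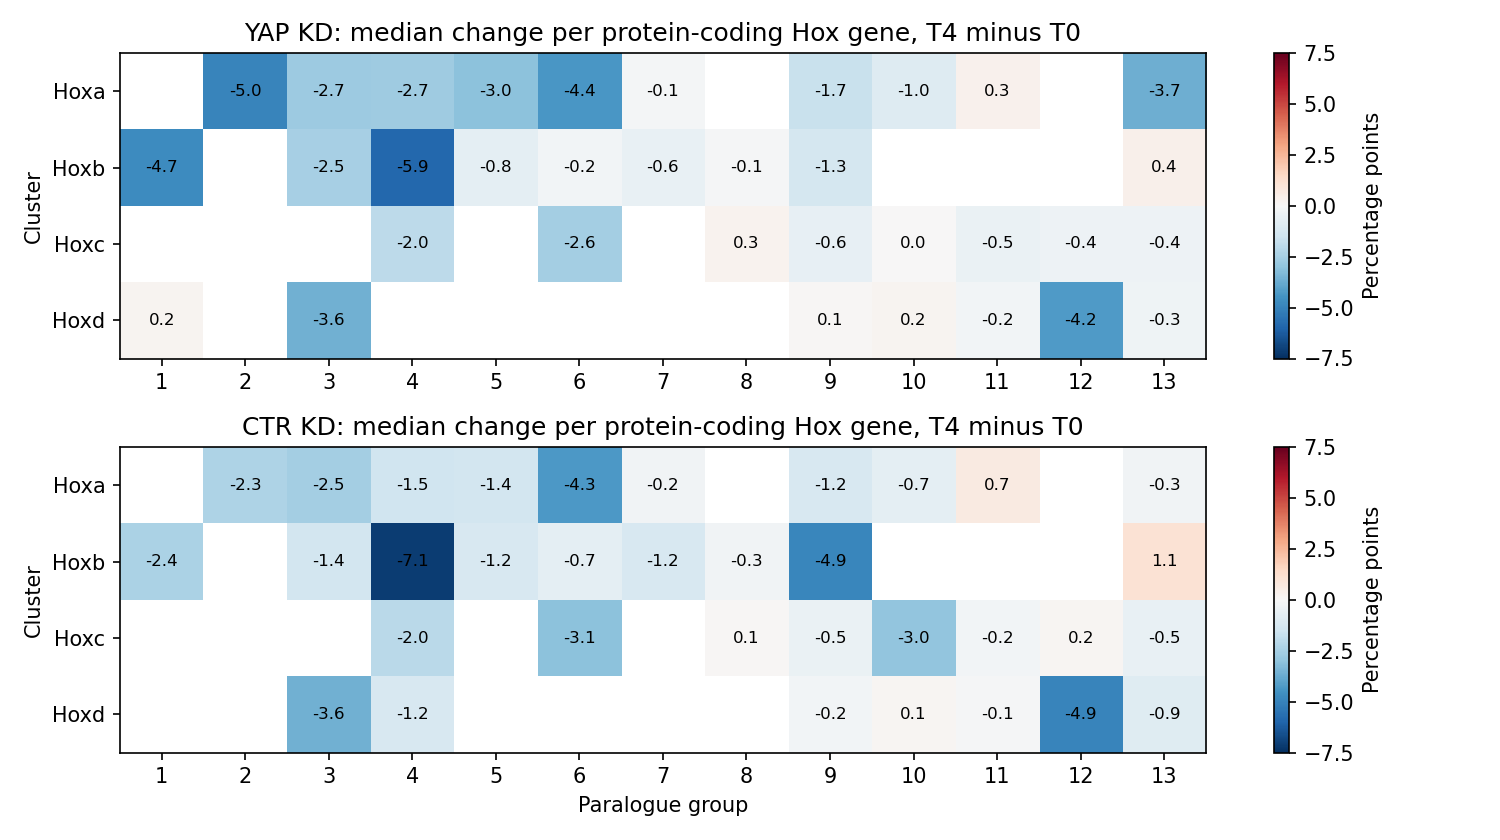
Median methylation change (T4 minus T0, percentage points) of each protein-coding Hox gene by cluster (rows) and paralogue group (columns), for YAP KD above and CTR KD below. Empty cells are genes that do not exist, have no window or are not reported here. Blue cells such as Hoxb4 at -5.91 points in YAP KD and -7.14 points in CTR KD stand mostly at groups 1 to 6 in YAP KD, with Hoxd12 at -4.25 points and Hoxa13 at -3.68 points in YAP KD among the high numbers.

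The losses of Hox windows varied with CpG content. In windows with up to 12 CpGs, 34 of 66 (51.5%) lost methylation in YAP KD cells without a minimum difference and 28 of 67 (41.8%) in CTR KD cells. In windows with over 18 CpGs only 10 of 76 (13.2%) did in YAP KD and 11 of 76 (14.5%) in CTR KD cells, and none of those was a DMR. The called windows held 10 to 16 CpGs. The same gradient was present over all windows, from 19.6% with up to 12 CpGs to 6.02% with over 18 CpGs in YAP KD cells and from 14.9% to 4.59% in CTR KD cells. The starting methylation of these windows is not in the tables, so a small difference cannot be told apart from a low level with little to lose.

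Distance from the TSS and gene structure gave a similar picture. Within 1 kb of a TSS, 44 of 144 Hox windows (30.6%) lost methylation in YAP KD and 33 of 142 (23.2%) in CTR KD cells, against 7.32% and 5.54% of all windows within 1 kb. From 1 to 10 kb, 41.8% of Hox windows did in YAP KD and 40.8% in CTR KD cells, against 24.7% and 19.2% of all windows. No Hox window centred on a coding exon was a DMR, among 80 in YAP KD and 88 in CTR KD cells, where 3.47% and 2.45% of all coding exon windows were lost DMRs. Of intron windows, 7 of 55 (12.7%) were lost DMRs in YAP KD and 4 of 53 (7.55%) in CTR KD cells, against 3.39% and 2.08% of all intron windows. These counts are small and were not tested. All 289 windows had a median 31-mer count of 1 in the genome, which is single-copy sequence.

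Other homeobox genes, transcription factors outside the Hox clusters such as Pax, Nkx and Lhx genes, behaved much like the Hox genes. They had 1027 windows, and 36.0% of those listed in YAP KD cells and 29.6% in CTR KD cells lost methylation without a minimum difference, close to the 34.4% and 29.7% of Hox windows. DMR losses were at 8.34% in YAP KD and 5.59% in CTR KD cells for these genes, above the 5.39% and 2.44% of Hox windows. The difference between both gene groups was not tested. Steep changes among them were a window nearest to En1, a midbrain and hindbrain regulator whose TSS is 193006 bp away, at -24.8 points in YAP KD cells, and one nearest to Otp, a hypothalamic regulator, at -20.8 points in YAP KD and -24.6 points in CTR KD cells. Pax5, a regulator of midbrain and B cell development, changed by -23.2 points in YAP KD and -24.2 points in CTR KD cells.

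**Figure D4:**
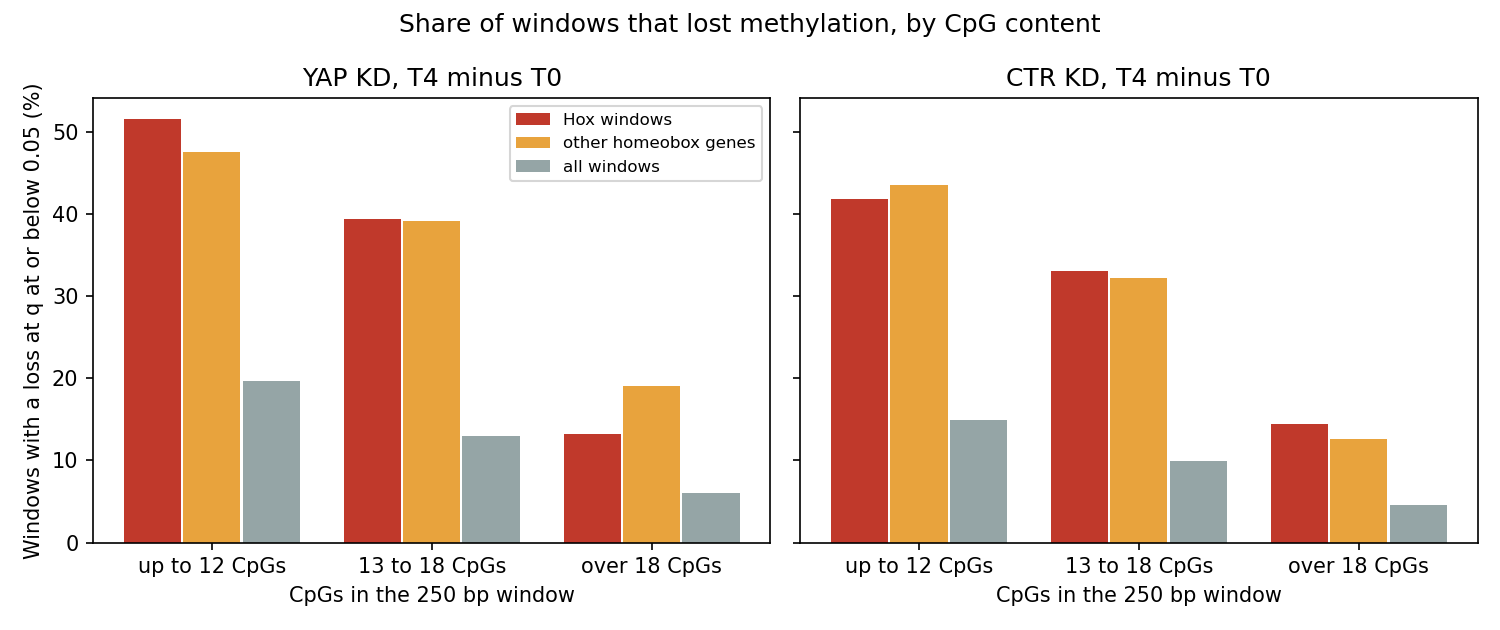
Share of windows (%) that lost methylation at q at or below 0.05, by number of CpGs in the 250 bp window, for Hox windows, other homeobox genes and all windows, in YAP KD cells on the left and CTR KD cells on the right. In YAP KD cells the share of Hox windows is 51.5% with up to 12 CpGs and 13.2% with over 18 CpGs, beside 19.6% and 6.02% of all windows.

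Proteins that act with or upon the Hox genes were measured at smaller numbers of windows. Over all genes, 7.20% lost and 1.23% gained a DMR in YAP KD cells and 5.23% lost and 2.30% gained one in CTR KD cells, and the lists below are too short to be read against these shares. The TALE homeodomain partners of Hox proteins had no DMR in YAP KD cells at any of 8 genes. Their CTR KD result is not reported here, so this does not make them free of DMRs. Of the ParaHox and even-skipped relatives, 2 of 6 genes lost a DMR in YAP KD cells and none of 6 did in CTR KD cells. These were Gsx1 and Evx1, the latter beside the 5′ end of the Hoxa cluster. The window nearest to Gsx1 changed by -15.2 points in YAP KD and -8.70 points in CTR KD cells. The window nearest to Evx1 changed by -10.2 points in YAP KD and -6.57 points in CTR KD cells. Both windows were intergenic and over 10 kb from the TSS, so each gene is named only as the nearest one. The difference between the YAP KD and CTR KD changes did not pass the adjusted z test at either window. Of the regulators of the clusters, 3 of 23 genes lost and 1 of 23 gained a DMR in YAP KD cells, and 1 of 21 lost and 2 of 21 gained in CTR KD cells. Among them Cyp26a1, which degrades retinoic acid, changed by -18.0 points in YAP KD and -8.62 points in CTR KD cells. Rara, a retinoic acid receptor, gained 17.4 points in YAP KD and 17.1 points in CTR KD cells. Neither the Cyp26a1 window nor the Rara window passed the adjusted z test for a difference between these changes. Cbx8, a Polycomb protein, changed by -17.9 points in CTR KD cells and was not listed for YAP KD at that window.

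Set directly against each other, YAP KD and CTR KD cells gave no Hox window past the q threshold. At T4, 0 of 248 Hox windows had a methylKit q-value at or below 0.05, against 1.33% of all windows, and 0 were DMRs, against 0.32%. At T0, 0 of 247 did, against 0.389% of all windows, and 0 were DMRs, against 0.0867%. At an unadjusted p under 0.05 there were 23 Hox windows at T4 (9.27%, against 11.2% of all windows) and 25 at T0 (10.1%, against 10.01%). The smallest p at T4 was at Hoxd11, with a difference of -1.29 points (q = 0.170), and at T0 at Hoxb8, with -1.88 points (q = 0.0929). The largest difference of each cluster at T4 was 3.49 points at Hoxa5, 4.68 points at Hoxb3os, 3.26 points at Hoxc4 and -3.53 points at Hoxd3. At T0 it was 7.44 points at Hoxa5, 7.64 points at Hoxb9, -5.94 points at Hoxc9 and -2.94 points at Hoxd12. These tables share samples with the differentiation tables.

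The change of YAP KD cells was then compared with that of CTR KD cells at the 215 Hox windows listed in both differentiation tables, which share no sample. No Hox window differed in the z test with Benjamini-Hochberg adjustment over 38551 windows, where 1.29% of all windows passed. At an unadjusted p under 0.05, 15 of 215 Hox windows (6.98%) differed, against 11.3% of all windows. The change was more negative in YAP KD cells at 14 of these 15 Hox windows, some of which overlap. Over all windows it was more negative in YAP KD cells at 3143 of the 4345 that differed. The direction was not tested. The median YAP KD minus CTR KD change was -0.126 points over Hox windows and -0.154 points over all windows. The differences at sites were widest at Hoxb9, where the window 1770 bp upstream gave -7.86 points (95% interval -14.0 to -1.71), and at Hoxa5, where the window 915 bp upstream gave -7.09 points (-12.8 to -1.38). At Hoxd3 the strongest window gave -0.126 points (-6.21 to 5.95) and at Hoxa7 -1.71 points (-9.50 to 6.08). At Hoxb3os the sign was opposite, 2.76 points (-4.48 to 9.99). These intervals rest on the derived SEs and leave room for a difference of several points at a single site. Whether the p-values behind them carry the variation between the 2 samples of a group is not known here, so the intervals may be too narrow. None of these windows passed the adjusted test.

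Along the clusters the changes of YAP KD cells tracked those of CTR KD cells. Over the 215 windows Pearson's r was 0.898 and Spearman's rho 0.789, as a description of windows that overlap and share libraries, and the sign was the same in 80.0%. Over all 38551 windows the values were 0.799, 0.489 and 62.2%. The lowest r of a cluster was 0.774, in Hoxc. Of the windows with a loss at q at or below 0.05, 49 were shared, which is 66.2% of the 74 in YAP KD cells and 73.1% of the 67 in CTR KD cells. Over all windows the shared losses were 53.2% of those in YAP KD and 68.8% of those in CTR KD cells.

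The TEAD core motif GGAATG, through which YAP is brought to DNA, was searched on both strands of each window. It was in none of the 13 called Hox windows, in 22 of 289 Hox windows (7.61%) and in 9.99% of all windows. At shares this low, its absence from 13 windows that form 8 sites says little, and it was not tested.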

How the data were processed

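The data were 8 bisulphite-sequencing samples, 2 in each of 4 groups. The authors captured regions (SureSelectXT Methyl-Seq), trimmed reads with Trim Galore, aligned them to mm9 with Bismark and Bowtie2, left out positions under 6 reads, and tested group differences with methylKit in overlapping 250 bp windows, per their methods and the submitters' processing notes. The authors deposited a p-value and a q-value for each window, and a methylation difference in percentage points, in 4 tables of comparisons between groups. No values per sample, levels or depths are in these tables, so depth is unknown. These comparisons are used because no other values of the windows were given.

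The members and lists were chosen with earlier results of these data known. Differences were read as T4 minus T0 from how the study describes gains and losses, and as YAP KD minus CTR KD: in 37980 windows common to the 4 tables, the knockdown difference at T4 less that at T0 correlated at 0.989 with the change in YAP KD less that in CTR KD, and 93.4% were equal within 0.5 points. This does not fix the overall sign.

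The nearest TSS came from GENCODE M1 genes of type protein_coding, lincRNA or processed_transcript on NCBIM37 (mm9). Called windows that overlapped or touched were merged into sites. Standard errors were derived from each difference and the normal deviate that its p-value corresponds to. Changes were compared by a two-sided z test, checked on simulated data. Named genes were every Hox gene with a DMR, the largest window of each cluster per comparison, and up to 2 genes of each other list per differentiation table. Hoxa11as, Hoxb4, Hoxb13, Hoxc6, Hoxd12 and Hoxd1 were chosen after their values were seen. Some genes that the rule names are not reported here. The prefix rule for other homeobox genes also takes in Islr2, Paxip1 and Nkx2-2as. Python 3.11.15, numpy 2.4.6, scipy 1.17.1 and pandas 2.3.3 were used.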

Additional observations from a re-analysis of the deposited data

How the results depend on the processing

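No paired analysis was possible because the tables hold no value per sample, and for the same reason no replicate could be left out. The absence of gained DMRs, of DMRs in the knockdown comparisons and of windows passing the z test was the same under every alternative run that kept the 10-point minimum, and a q threshold of 0.01 changed no count by over 1.5 times. Several of these runs could not have ended an absence. The stricter q threshold, the doubled standard errors and the limit of 10 kb from the TSS can only remove calls. The T4 minus T0 knockdown difference is nearly the same contrast as the main z test. The medians ranged from -1.34 to -0.75 points in YAP KD and from -1.17 to -0.994 points in CTR KD cells. The derived SE is that of a single window and gives no error for these medians. The end at -0.75 points is the median over genes, at which CTR KD (-1.17 points) has the larger loss. In the z test the number of Hox windows at an unadjusted p under 0.05 was 0 with standard errors doubled and 14 of 219 with the T4 minus T0 knockdown difference.

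Over non-overlapping windows, lost DMRs were 7 of 124 (5.65%) in YAP KD and 5 of 123 (4.07%) in CTR KD cells. The main shares were 13 of 241 (5.39%) and 6 of 246 (2.44%). In YAP KD cells lost DMR windows numbered 20 with TSSs of protein-coding transcripts and 20 with TSSs by transcript type (chosen after seeing the data). Without a minimum difference they were 83, and over 20 points 2. In CTR KD cells they were 11 in the cluster spans, 12 with TSSs of protein-coding transcripts and 12 by transcript type. There they were 73 without a minimum and 3 over 20 points. Genes with a lost DMR in YAP KD cells numbered 10 in the cluster spans, counting genes other than Hox, 24 without a minimum and 2 over 20 points, and in CTR KD cells 8 in the spans, 8 with protein-coding transcripts, 8 by transcript type, 25 without a minimum and 3 over 20 points. Gained windows in CTR KD cells numbered 1 without a minimum, at 1 gene. The choice of TSSs thus changed the number of lost DMRs and not their direction. Over the main rule and both other choices of TSSs, the median window stayed between -1.30 and -1.24 points in YAP KD cells. In CTR KD cells it stayed between -1.04 and -0.998 points. A minimum of 20 points ended the call at 8 of the site values.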

Other observations

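Inside or beside the clusters, further sites of lost methylation lay nearest to the TSS of a gene other than a Hox gene and so were not members. One was upstream of Hoxb4 (chr11:96171876-96172125), nearest to the TSS of 0610040B09Rik, at -21.6 ± 2.37 points in YAP KD and -28.0 ± 2.19 points in CTR KD cells. YAP KD minus CTR KD was 6.46 points for that change (95% interval 0.152 to 12.8), and it did not pass the adjusted z test.

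Next to Mir10a, a microRNA between Hoxb4 and Hoxb5, a window over a Hoxb4 UTR (chr11:96178126-96178375) changed by -22.5 ± 3.30 points in YAP KD and -22.8 ± 3.42 points in CTR KD cells. Within Hoxa, a window over a Hoxa5 coding exon (chr6:52152501-52152750) changed by -15.3 points in YAP KD cells, with no value for CTR KD. Beyond Hoxa13, near Gm15053, a window changed by -15.1 points in YAP KD and -10.3 points in CTR KD cells, and another by -10.1 points in YAP KD cells, with no value for CTR KD.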
